A study of Mus musculus with 2 samples.

Results

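A set of oligodendrocytes from the mouse optic nerve was chosen on the UMI counts of single cells. Members had at least 4 UMIs of the myelin genes Mag, Mog, Ermn and Aspa together, no UMI of the leukocyte gene Ptprc, at least 3 UMIs of Serpina3n and C4b together, and at most 2 UMIs of the interferon-inducible GTPase genes Iigp1, Igtp and Tgtp2 together. In all, 1877 cells met these limits, of 8440 oligodendrocytes that passed the Mag, Mog, Ermn, Aspa and Ptprc limits and of 25652 cells kept in the series. Of them, 1121 came from library C-ON and 756 from library FMC_new.

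Both libraries were made from optic nerves of Nf1OPG mice at 12 weeks of age, with 10 mice pooled. These mice carry 1 floxed and 1 mutant Nf1 allele with GFAP-Cre on a C57BL/6 background, so that Nf1 is lost in cells of the GFAP-Cre lineage, and they develop low-grade optic gliomas. GEO labels both with the same genotype, 1 with the word control and 1 as FMC new, and what these words refer to is not given in the sources used here. They were taken as 2 libraries of 1 group, and no difference between them was tested.

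Oligodendrocytes wrap axons of the optic nerve in myelin. Serpina3n encodes a secreted inhibitor of serine proteases, and C4b encodes complement component C4, which is cleaved when the classical complement pathway is active. Both genes are known to be induced in glia, oligodendrocytes included, during injury, demyelination and ageing. Interferons raise a set of genes of which the GTPases Iigp1, Igtp and Tgtp2 are strong examples, and they also raise the genes of antigen presentation on MHC class I.

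In GRCm38, Serpina3n lies at chr12:104406729-104414329 on the plus strand and C4b at chr17:34728380-34743882 on the minus strand, in the MHC region. C4b has a close copy, C4a, at chr17:34809092-34823464 on the minus strand, and reads shared by both could be split or dropped by the counting. C4a had at most 6 UMIs in the members, the other oligodendrocytes and the interferon oligodendrocytes of either library.

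The 300 bases around the RefSeq start site (250 before it and 50 after, GRCm38.p6) are shown for Serpina3n, for the MHC class I light chain gene B2m, which was higher in the members, and for Igtp, which the rule keeps low in the members. All 3 lie on the plus strand, at chr12:104406458-104406757, chr2:122147437-122147736 and chr11:58199306-58199605. Capitals mark matches on either strand to 3 patterns, TTCNNNGAA (the core of sites for STAT dimers), TTCNNTTTC (the core of interferon-stimulated response elements) and GGGNNTTTC (most of an NF-kB site).
Serpina3n: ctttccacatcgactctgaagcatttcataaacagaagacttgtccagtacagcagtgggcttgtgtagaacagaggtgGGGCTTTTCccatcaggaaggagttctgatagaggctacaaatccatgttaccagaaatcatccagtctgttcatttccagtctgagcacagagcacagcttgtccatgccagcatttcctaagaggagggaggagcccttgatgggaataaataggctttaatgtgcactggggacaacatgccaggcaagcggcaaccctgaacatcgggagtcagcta
B2m: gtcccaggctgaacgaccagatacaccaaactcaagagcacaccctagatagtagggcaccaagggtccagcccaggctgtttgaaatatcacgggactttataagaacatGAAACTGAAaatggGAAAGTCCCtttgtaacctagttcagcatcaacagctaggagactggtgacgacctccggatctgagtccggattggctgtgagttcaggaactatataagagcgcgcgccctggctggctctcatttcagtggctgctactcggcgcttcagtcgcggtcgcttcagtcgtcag
Igtp: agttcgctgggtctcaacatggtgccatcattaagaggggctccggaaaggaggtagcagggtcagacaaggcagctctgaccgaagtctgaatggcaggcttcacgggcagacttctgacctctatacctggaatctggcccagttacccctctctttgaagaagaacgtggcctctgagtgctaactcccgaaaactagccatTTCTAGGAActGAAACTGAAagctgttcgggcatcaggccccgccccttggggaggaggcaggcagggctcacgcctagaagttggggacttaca
Serpina3n held 1 match, to GGGNNTTTC, at bases 80 to 88 of the window. B2m held TTCNNTTTC and GGGNNTTTC, and Igtp held TTCNNNGAA and TTCNNTTTC. The matches did not overlap in these windows. Of all 32851 promoters in the table, 8.3% held TTCNNNGAA, 8.56% held TTCNNTTTC and 4.36% held GGGNNTTTC. C4b is not in the table.

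The members carried oligodendrocyte RNA beyond the genes of the rule. Each level below is a gene's share of all UMIs in a class and library, per 1000000 UMIs (CPM). Mbp, a protein of compact myelin, had 7560 CPM in C-ON and 7660 CPM in FMC_new. The levels of 9 oligodendrocyte markers summed to 70100 and 60400 CPM in the members, against 68300 and 55100 in the other oligodendrocytes. The 4 endothelial markers summed to under 1 CPM in the members of each library, with Cldn5 and Cdh5 at 0 in both. Astrocyte markers summed to 89.1 and 109 CPM, against 95.4 and 131 in the other oligodendrocytes. More members than other oligodendrocytes held at least 2 astrocyte marker UMIs in both libraries (21.3% against 13.9% in FMC_new). At least 2 UMIs of markers of any of 6 other cell types were found in 28.5% and 38.6% of members, against 22.2% and 40.3%. The members were deeper, and these differences were not tested. Microglia and macrophage markers (8 of 8 detected) summed to 46.6 CPM in C-ON and 265 in FMC_new. The pituitary hormone genes Gh and Prl were at 0 in the members of C-ON, while in FMC_new 99.7% of members had at least 2 UMIs of Gh, Prl and Pomc together, and so had 99.8% of its other oligodendrocytes.

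The 2 genes that define the members were not always found together. Serpina3n had a UMI in 92.2% of members of each library (95% exact intervals 90.5 to 93.7% and 90.0 to 94.0%). C4b had one in 62.4% of members of C-ON and 87.4% of those of FMC_new. Both genes were detected in 54.7% and 79.6% of members, Serpina3n alone in 37.6% and 12.6%, and C4b alone in 7.76% and 7.8%. T cells, which should lack both genes, had a UMI of Serpina3n in 1.33% and 2.77% of cells and of C4b in 2.55% and 4.05%, at median depths of 3412.5 and 3347 UMIs against 10079 and 8460 in the members.

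The sum of Serpina3n and C4b had a median of 5 UMIs in the members of C-ON and 8 in those of FMC_new, and reached 68 and 103. The threshold of 3 UMIs lay on a falling slope and not in a gap. In C-ON, 644 cells had a sum of 2 and stayed outside, while 342 cells had a sum of 3. In FMC_new these numbers were 169 and 123. A sum of 10 or more was found in 20.4% of members of C-ON and 43.9% of members of FMC_new. Median depth rose with the sum, from 6322.5 UMIs per cell at a sum of 0 to 9509.5 at 3 in C-ON, and from 4644 to 6629 in FMC_new.

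**Figure D1:**
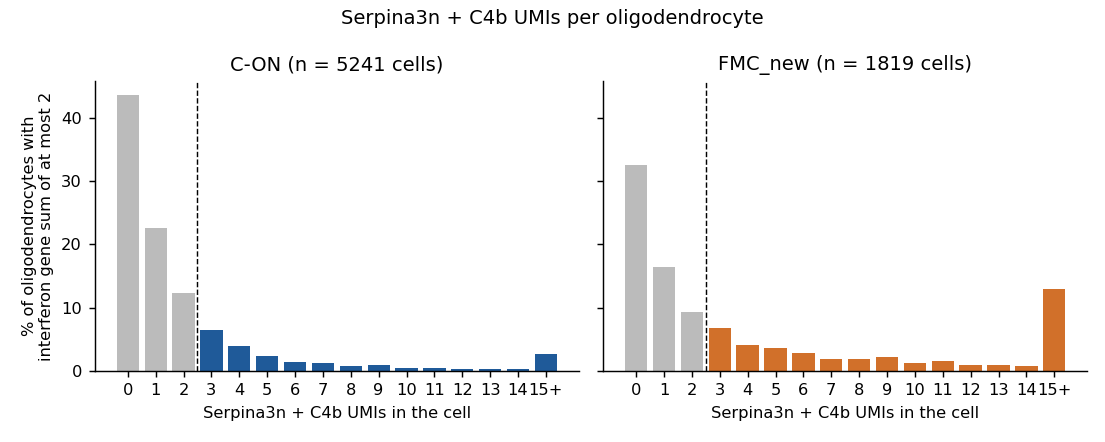
UMIs of Serpina3n and C4b per cell (x axis) against the percentage of oligodendrocytes with an interferon gene sum of at most 2 (y axis), in each library. Coloured bars to the right of the dashed line are the members, and the last bar pools all sums of 15 or more, 13.0% of these cells in FMC_new.

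The members made up 19.2% of the gated oligodendrocytes of C-ON (1121 of 5848, 95% exact interval 18.2 to 20.2%) and 29.2% of those of FMC_new (756 of 2592, 27.4 to 31.0%). After each cell was thinned to 4000 UMIs, with 908 and 626 shallower cells left out, 9.98% and 29.9% met the limits. At this depth 43.6% of the members of C-ON and 71.3% of those of FMC_new still had a sum of at least 3. Most members had no UMI of Iigp1, Igtp and Tgtp2 at all, 90.1% in C-ON and 67.2% in FMC_new.

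Serpina3n and C4b were also high in the oligodendrocytes with 3 or more UMIs of the interferon genes (607 and 773 cells), which the rule leaves out. Serpina3n was at 399 and 883 CPM in the members and at 1730 and 1600 in the interferon oligodendrocytes. C4b was at 329 and 734 in the members and at 1160 and 1210 in the interferon oligodendrocytes. Igtp, by contrast, was at 4.44 and 25.3 in the members, close to 3.66 and 18.9 in the other oligodendrocytes, and at 922 and 725 in the interferon oligodendrocytes. The members thus held intermediate levels of Serpina3n and C4b with low levels of the interferon GTPases. These levels follow from the rule and were not tested.

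To find what the members share beyond these genes, UMIs were summed per library over the members and over the other oligodendrocytes, that is, cells of the same gate with a Serpina3n and C4b sum below 3 and an interferon sum of at most 2 (4120 and 1063 cells). edgeR's quasi-likelihood test with the library as a block found 97 genes higher in the members (0.745% of 13022 tested) and 247 lower (1.9%) at an adjusted p under 0.05, without the 10 genes of the rule. With 2 libraries the fit leaves 1 residual degree of freedom, and the cells of 1 library share their pool of mice. Without the block, 0 genes passed in edgeR in either direction, with 325 at an unadjusted p under 0.05, against 2144 with it. DESeq2 with the block gave 63 higher and 137 lower. In both libraries the members were deeper than the other oligodendrocytes (10079 against 6993 UMIs per cell at the median, and 8460 against 5105).

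Of 24 genes of antigen presentation on MHC class I, 7 rose and none fell, with a median log2 fold change of 0.48 against -0.01 over all genes tested. H2-D1, a class I heavy chain, was at 383 CPM in members of C-ON (95% Poisson interval 372 to 395) and 1740 in FMC_new (1710 to 1770), against 145 and 546 in the other oligodendrocytes. Its log2 fold change was 1.52 ± 0.07 (SE, n = 2 libraries; edgeR adjusted p = 0.000389). In each library the members lay above the other cells, while the other cells of FMC_new lay above the members of C-ON, so the libraries differ in level and not in direction. B2m, the class I light chain, was at 221 and 1030 against 108 and 506, a log2 fold change of 1.01 ± 0.06 (edgeR adjusted p = 0.000743). H2-K1 (1.10), H2-T23 (0.75), H2-Q4 (1.84) and Nlrc5, the transactivator of class I genes (1.20), rose as well on the log2 scale. The class I heavy chains are similar in sequence, and reads that fit several of them could be split or dropped by the counting. Psmb8, a subunit of the immunoproteasome, was at 16.6 and 82.5 against 9.23 and 60.8, and did not pass the test (edgeR adjusted p = 0.0607).

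Among genes that interferon raises, 10 of 44 tested rose and 1 fell (median log2 fold change 0.35). Irgm1, another GTPase of the same family, was at 12.1 and 65.1 CPM in the members against 5.31 and 21.9, a log2 fold change of 1.38 ± 0.13 (edgeR adjusted p = 0.00451). Usp18, which restrains interferon receptor signalling, was at 12.3 and 21.8 against 5.44 and 10.7 (1.10 ± 0.14, edgeR adjusted p = 0.0162). Oasl2 (1.27), Gbp7 (1.15) and Zbp1, a nucleic acid sensor (1.07), rose too. In the members of C-ON, 10 cells held 51.3% of the UMIs of Oasl2 and 56.1% of those of Zbp1. Isg15, a ubiquitin-like protein, went in opposite directions in the 2 libraries, at 3.33 against 2.97 in C-ON and 9.28 against 18.5 in FMC_new. The gene that fell was Ifitm3 (-1.77), and it did not pass in the cells left after removal of mixed barcodes described further on (-0.40, edgeR adjusted p = 0.772).

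H2-D1 was higher in the members with 1 or 2 UMIs of the 3 GTPase genes. In C-ON it was at 283 CPM in the 1010 members with none and at 1430 in the 111 members with 1 or 2. In FMC_new it was at 1300 in 508 members and 2670 in 248. When the members and the other oligodendrocytes were both limited to cells with no UMI of the 3 genes, the log2 fold change was 1.26 for H2-D1 (edgeR adjusted p = 0.000444) and 0.76 for B2m (1.13e-05). In these cells Irgm1 (0.81, adjusted p = 0.087), Oasl2 (0.68, 0.23) and Zbp1 (0.27, 0.763) no longer passed edgeR's test, while Usp18 (0.97, 0.00968) and Gbp7 (1.07, 0.0176) did.

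STAT3 and NF-kB genes held 3 that rose and none that fell among 27 tested, with a median log2 fold change of -0.18. Stat3, the transcription factor of the acute phase response, was at 117 and 157 CPM in the members against 73.6 and 82.3 in the other oligodendrocytes. Its log2 fold change was 0.78 ± 0.08 (edgeR adjusted p = 0.00623). Bcl3, a regulator that binds NF-kB, was low in number but higher in both libraries, at 3.59 and 18.3 against 0.36 and 4.37 (2.51 ± 0.34, edgeR adjusted p = 0.0195). Cebpd, a transcription factor of the acute phase response, was at 56.0 and 175 against 23.2 and 96.7 (1.04 ± 0.11, edgeR adjusted p = 0.00781). Socs3, the feedback inhibitor of this pathway, was at 7.17 and 38.5 against 3.10 and 27.8 and did not pass (edgeR adjusted p = 0.125).

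Of 35 tested genes described in oligodendrocytes of disease models, 10 rose and 3 fell, with a median of 0.29, and 4 of the 10 (H2-D1, H2-K1, B2m and Bcl3) are also in the lists above. Fxyd1, a regulator of the sodium pump, was at 17.0 and 73.8 CPM in the members against 4.78 and 12.6 (2.15 ± 0.17, edgeR adjusted p = 0.00268). In C-ON 10 cells held 54.3% of its UMIs in the members, and in FMC_new 27.6%. Klk8, a secreted serine protease, was at 12.2 and 39.0 against 3.99 and 5.24 (2.08 ± 0.26, edgeR adjusted p = 0.0149). Its log2 ratio was 1.61 in C-ON and 2.87 in FMC_new, and 10 cells held 51.7% and 37.5% of its UMIs in the members. Klk6, the protease most abundant in oligodendrocytes, was at 2090 and 3540 against 1240 and 1010 and did not pass the test (edgeR adjusted p = 0.415), with a log2 ratio of 0.75 in C-ON and 1.81 in FMC_new. Il33, an alarmin stored in the nucleus of oligodendrocytes, was at 210 and 454 against 164 and 312 (0.43 ± 0.07, edgeR adjusted p = 0.0259). Lgals1 was among the genes of this list that fell, at 2.65 and 20.4 against 6.92 and 49.6 (-1.335 ± 0.126, edgeR adjusted p = 0.0053). Among genes of other lists, Csf1, a growth factor for microglia, was at 172 and 204 against 126 and 123 (0.57 ± 0.08, edgeR adjusted p = 0.019). Trf, the iron carrier transferrin, was at 11900 and 14700 against 9280 and 8200 (0.59 ± 0.11, edgeR adjusted p = 0.0444).

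Among called genes outside the lists, with at least 20 CPM and the same direction in both libraries, Rab3b had the highest fold change. Rab3b is a GTPase of vesicle release. It was at 42.6 CPM in members of C-ON (39.0 to 46.5) and 84.6 in FMC_new (77.7 to 91.9), against 10.8 and 23.9 in the other oligodendrocytes (log2 fold change 1.90 ± 0.09, edgeR adjusted p = 0.000366). Here the members of each library were above the other cells of both. Piezo2, a mechanically gated ion channel, was at 70.3 and 91.7 against 31.6 and 23.6 (1.45 ± 0.18, edgeR adjusted p = 0.0287). Cadps2, which primes dense core vesicles, was at 26.6 and 45.8 against 12.2 and 16.8, and Nol3, an inhibitor of apoptosis, was at 41.7 and 63.9 against 19.7 and 22.4. Both had a log2 fold change of 1.24 with the same edgeR adjusted p of 0.00438. In the interferon oligodendrocytes Cadps2 was higher still, at 71.8 and 76.1, and so was Nol3, at 102 and 95.6. Cela1 (1.07), Mmd2 (0.89), Cntn3 (0.79), Fgfrl1 (0.79), Lbh (0.76), Map1b (0.72) and Sema5a, an axon guidance cue (0.63), followed.

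Of 29 sterol synthesis genes 3 rose and none fell, with a median of 0.22. Hmgcs1, an early enzyme of cholesterol synthesis, was at 1210 and 782 CPM against 879 and 530 (0.50 ± 0.06, edgeR adjusted p = 0.0107). With other oligodendrocytes chosen for depth like that of the members, its value was 0.39 and did not pass (edgeR adjusted p = 0.0519). This choice matched the median depth in C-ON (10079 UMIs in both classes) but only narrowed the gap in FMC_new (8460 against 6416.5). Of the 16 core myelin genes tested none rose and 1 fell. It was Opalin, a membrane protein of mature oligodendrocytes, at 536 and 460 against 665 and 618 (-0.38 ± 0.06, edgeR adjusted p = 0.0322). When members were chosen by at least 5 UMIs of Serpina3n and C4b per 10000 UMIs of the cell, its sign turned (0.055). None of 22 genes of precursors and newly formed oligodendrocytes and none of 17 RAS and MAPK feedback genes passed in either direction. Over all genes tested 0.745% were called higher and 1.9% lower, so counts of 0 or 1 in lists this short do not set them apart from other genes.

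The genes lower in the members included genes made by other cell types, whose UMIs lay in few cells. In 121 of the 247, 10 cells held over 50% of the gene's UMIs in the other oligodendrocytes of at least 1 library, against 9 of the 97 higher genes when counted in the members. This was counted for called genes only, in classes of different size, so no share over all genes tested stands beside it. The immunoglobulin gene Ighv8-12 was at 8.45 and 63.4 CPM in the members against 247 and 2140, and 10 cells held 95.3% and 72.6% of its UMIs in the other oligodendrocytes. Dcn, a fibroblast proteoglycan, was at 0.09 and 0.61 against 11.2 and 16.8, with 89.1% and 95.8% in 10 cells. The same held for Mgp (63.0% and 90.4%) and, in FMC_new, for the pituitary hormone gene Prl (52.7%). Microglia and macrophage markers fell in 7 of 8 cases, and their summed level was 46.6 and 265 CPM in the members against 95.7 and 762 in the other oligodendrocytes. Of 8 MHC class II genes 4 fell and none rose, among them H2-Aa, at 18.1 and 97.1 against 44.6 and 313. Immediate early genes fell in 6 of 24 cases, and with depth matched alone in 4 of 24. After removal of mixed barcodes, described further on, 0 of 23 fell and 2 rose. With depth matched there as well, 0 of 22 fell and 3 rose. The part of RNA from other cells in these differences was not tested.

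The comparison was repeated, by a choice made after these values were seen, in cells with a myelin marker sum of at least 20, fewer than 2 UMIs of markers of each of 6 other cell types, and under 1% of UMIs from immunoglobulin and from pituitary hormone genes. This left 772 and 384 members and 2824 and 343 other oligodendrocytes. Of the 97 higher genes 81 were again higher, and of the 247 lower genes 35 were again lower. With depth matched as well, 53 and 12 remained. The members of FMC_new were still deeper there (8304 against 6683 UMIs at the median), while those of C-ON were not (9315.5 against 9312.5).

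In this strict, depth-matched set, Bcl3 (4.12), Rab3b (2.26), Fxyd1 (3.05), H2-Q4 (2.85), Cebpd (2.19), Cadps2 (1.27), Nol3 (1.21), Cela1 (1.15), Stat3 (0.92), Il33 (0.78) and Csf1 (0.49) were higher on the log2 scale and passed edgeR's test, with adjusted p from 1.13e-12 for H2-Q4 to 0.00485 for Csf1. H2-D1, H2-K1 and B2m had larger log2 fold changes than in all cells, 2.21, 2.37 and 1.97, but did not pass (edgeR adjusted p = 0.751, 0.444 and 0.199). Ttyh1, a chloride channel family member (-0.86, adjusted p = 0.00188), and Lsamp, a cell adhesion molecule (-0.67, adjusted p = 0.00182), stayed lower. H2-Aa (0.10), C1qb (0.28), Lyz2 (0.63) and Mgp (0.73) changed sign and did not pass.

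**Figure D2:**
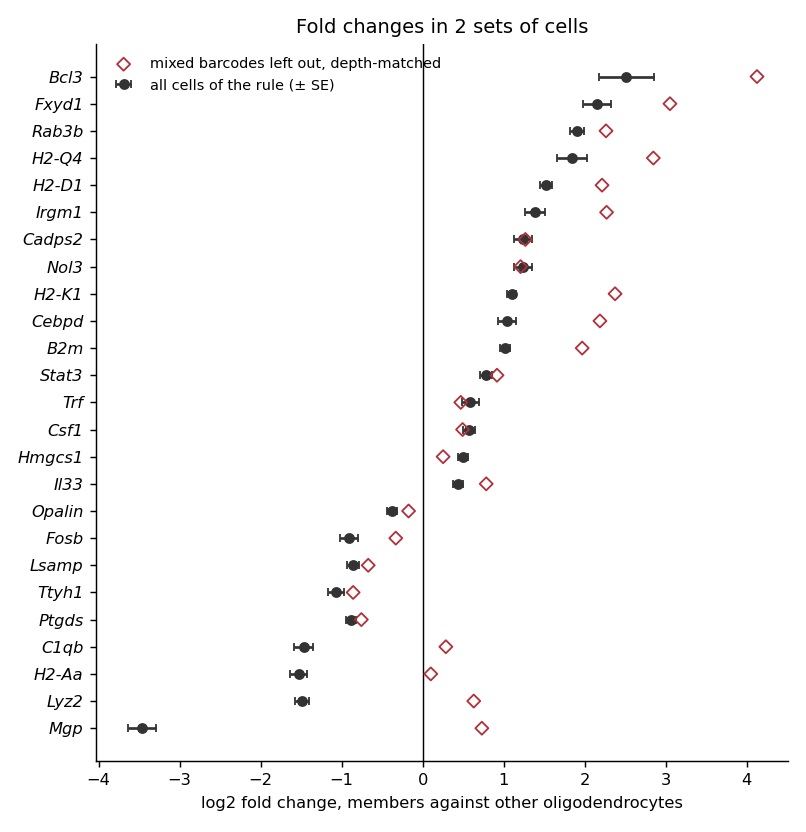
Log2 fold changes of 25 genes, members against other oligodendrocytes, in all cells of the rule (filled circles, ± SE, n = 2 libraries) and after mixed barcodes were left out and depth matched (open diamonds). Genes from Bcl3 to Il33 stay above 0 in both sets, while C1qb, H2-Aa, Lyz2 and Mgp lie below 0 in the first and above 0 in the second.

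Ptgds, the prostaglandin D2 synthase that marks a group of mature oligodendrocytes, was at 1590 and 2460 CPM in the members against 2800 and 4680 in the other oligodendrocytes (-0.89 ± 0.06, edgeR adjusted p = 0.00167). Its UMIs were spread over many cells, with 6.2% and 17.4% in 10 cells. With the other oligodendrocytes chosen for depth as for Hmgcs1, the log2 fold change was -0.66 and did not pass (edgeR adjusted p = 0.39).

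The levels of these genes were then followed along the sum of Serpina3n and C4b, as a description with no test. H2-D1 rose from 134 CPM at a sum of 0 to 206 at 3 to 4 and 908 at 10 or more in C-ON, and from 399 to 1060 and 2070 in FMC_new. Rab3b went from 9.01 to 15.4 and 110 in C-ON, and from 26.4 to 46.7 and 120 in FMC_new. Fxyd1 was flat up to a sum of 4 in C-ON (4.80 and 5.50) and was at 53.4 at 10 or more, while in FMC_new it was at 12.3, 19.1 and 122. Bcl3 went from 0.40 to 0.71 and 12.1 in C-ON and from 5.34 to 4.95 and 29.4 in FMC_new. Bcl3, Rab3b and Fxyd1 were thus highest in the 229 and 332 members with a sum of at least 10. Il33 was lowest at a sum of 3 to 4, at 110 in C-ON and 206 in FMC_new, below its level of 179 and 329 at a sum of 0. Ptgds fell from 3440 at a sum of 0 to 1370 at 3 to 4 in C-ON and from 5240 to 2430 in FMC_new, and was at 1680 and 2210 at 10 or more.

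**Figure D3:**
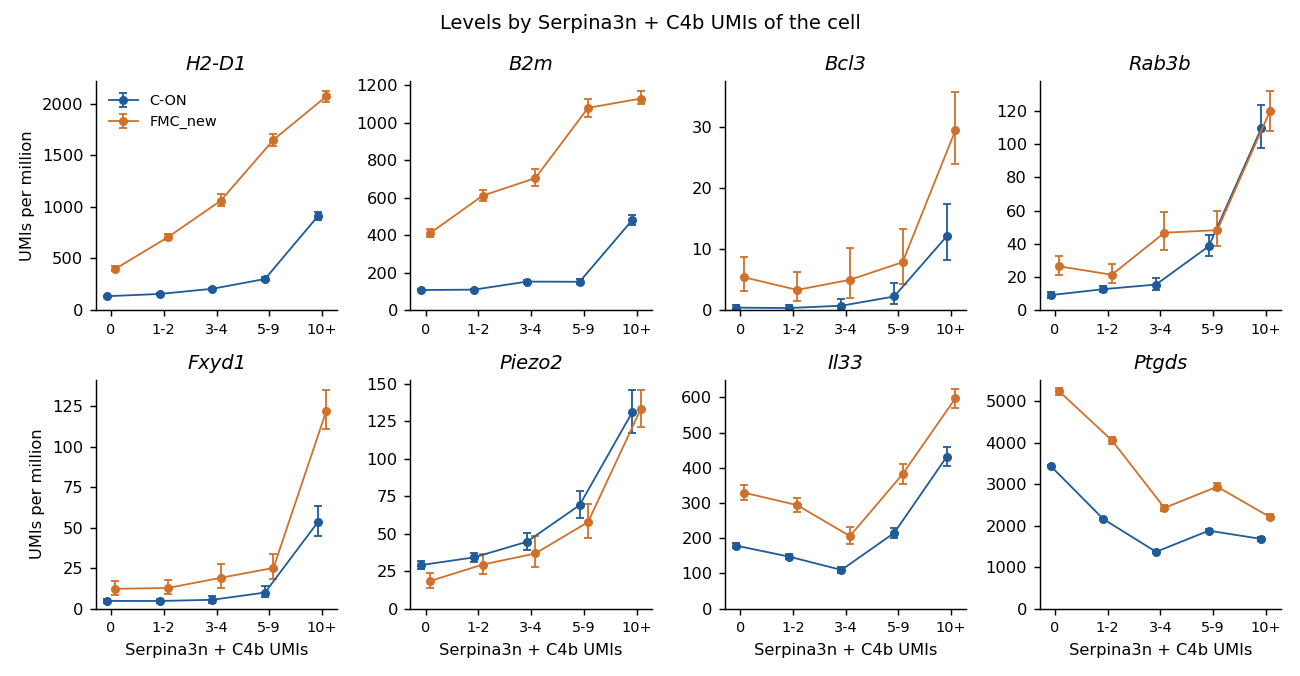
CPM (y axis, from 0) of 8 genes in oligodendrocytes grouped by the Serpina3n and C4b sum of the cell (x axis), in C-ON and FMC_new, with exact 95% Poisson intervals for counting error only. H2-D1 and Rab3b are highest at a sum of 10 or more in both libraries, Il33 has its lowest point at 3 to 4, and Ptgds is highest at 0.

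The members divided further by which of the 2 genes they held. Members with Serpina3n and no UMI of C4b (421 and 95 cells) had H2-D1 at 160 and 450 CPM, near the 145 and 546 of the other oligodendrocytes. Members with both genes (613 and 602 cells) had it at 565 and 1930, and those with C4b alone (87 and 59 cells) at 358 and 1890. B2m was likewise lowest with Serpina3n alone, at 96.1 and 294, against 321 and 1130 with both and 226 and 1140 with C4b alone. Il33 was at 56.6 and 101 in members with Serpina3n alone, below the 164 and 312 of the other oligodendrocytes, at 312 and 510 in those with both, and at 381 and 464 in those with C4b alone.

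Other genes went the opposite way. Anxa5, a calcium-dependent phospholipid-binding protein, was at 715 and 813 CPM in members with Serpina3n alone, at 416 and 402 with both, and at 277 and 323 with C4b alone. Hopx, an atypical homeodomain protein, was at 462 and 640, 310 and 331, and 173 and 264. S100b, a calcium-binding protein, was at 1290 and 1010, 907 and 516, and 475 and 387. Klk6 was at 2230 and 2630 with Serpina3n alone and at 815 and 923 with C4b alone. Members with Serpina3n alone were somewhat deeper than those with both genes, with medians of 11182 against 9680 UMIs in C-ON and 9224 against 8489 in FMC_new. They had a median sum of 3, against 7 and 11 with both genes and 4 with C4b alone. The subsets thus differ in the sum as well as in the gene detected, and the part of each was not tested. Anxa5 and Hopx were called higher in the members as a whole (0.40 and 0.62), but with C4b alone as the criterion both were lower, at -0.30 and -0.06, and did not pass (edgeR adjusted p = 0.202 and 0.836).

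**Figure D4:**
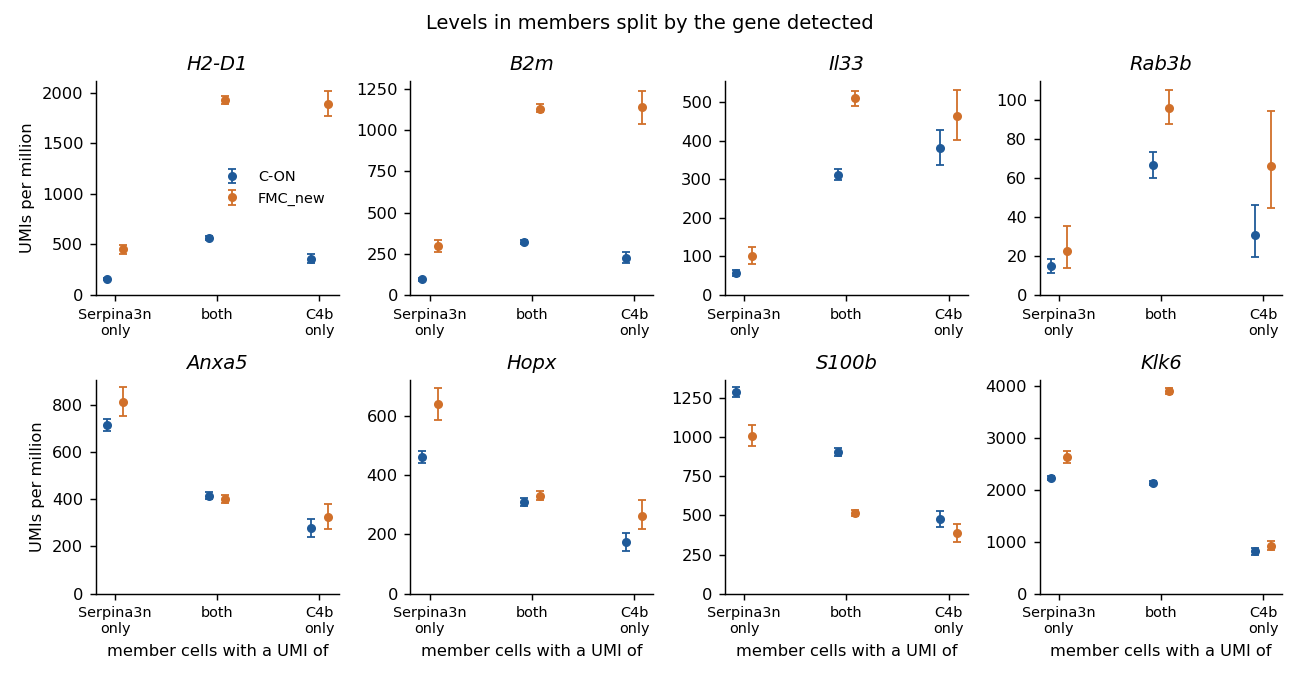
CPM (y axis, from 0) of 8 genes in members with a UMI of Serpina3n only, of both genes or of C4b only (x axis), in C-ON and FMC_new, with exact 95% Poisson intervals for counting error only. H2-D1, B2m and Il33 are lowest with Serpina3n only, and Anxa5, Hopx and S100b are highest there.

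In the comparison with the interferon oligodendrocytes, the genes lower in the members included interferon-inducible GTPases. Of 12396 genes tested, 22 were higher in the members (0.177%) and 21 lower (0.169%) by edgeR at an adjusted p under 0.05, and again 0 without the block (1083 at an unadjusted p under 0.05). Of 44 interferon-stimulated genes, 43 were lower in both libraries with a median log2 fold change of -3.53, but only Gbp5 passed the test. The rule splits the classes by 3 genes of the same programme, so the direction of this list is a description. So are the tests of the interferon-inducible genes Gbp5 and Gbp2b that follow. Gbp5, a guanylate-binding protein, was at 0.77 and 1.22 CPM in the members and at 42.3 and 27.0 in the interferon oligodendrocytes (-5.22 ± 0.31, edgeR adjusted p = 0.0123). Gbp2b was at 0.68 and 0.76 against 44.9 and 27.0 (-5.69 ± 0.26, edgeR adjusted p = 0.00205), and Parp11 at 7.00 and 6.09 against 41.5 and 29.8 (-2.45 ± 0.16, edgeR adjusted p = 0.0123). In the members Gbp5 had 9 and 8 UMIs and Gbp2b 8 and 5.

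MHC class I genes in the members were below the interferon oligodendrocytes in both libraries in 23 of 24 cases (median -3.16). Of these H2-T24 passed the test (-3.74 ± 0.32, edgeR adjusted p = 0.0433). Interferons raise genes of this list as well, so this direction too is a description. H2-D1 was at 383 and 1740 CPM in the members and at 5190 and 4170 in the interferon oligodendrocytes. Rab3b stood at 42.6 and 84.6 against 145 and 114, and Stat3 at 117 and 157 against 233 and 227, so for these genes too the members lay between the other 2 classes in each library. The interferon oligodendrocytes were likewise above the members for Bcl3 (42.2 and 46.2), Cebpd (247 and 295), Fxyd1 (189 and 150) and Klk8 (789 and 193). So they were for Klk6 (6230 and 5580), Il33 (740 and 720), Csf1 (267 and 231) and Cela1 (107 and 80.2). Map1b (288 and 312 in the members against 283 and 262) and Hopx (365 and 366 against 284 and 203) went the other way, as did genes given below. Casp12, an inflammatory caspase relative (-2.32), and Mcl1, an inhibitor of apoptosis (-0.77), were lower in the members.

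Genes higher in the members than in the interferon oligodendrocytes included Uchl1, a ubiquitin hydrolase, at 242 and 190 CPM against 99.6 and 80.4 (log2 fold change 1.25 ± 0.09, edgeR adjusted p = 0.0168). Nkx2-9, a homeodomain transcription factor, was at 33.8 and 20.5 against 6.71 and 6.60 (1.98 ± 0.22, edgeR adjusted p = 0.0467). Serpinb1a, an intracellular serine protease inhibitor, was at 649 and 489 against 292 and 272 (0.99 ± 0.11, edgeR adjusted p = 0.0467). Rora (1.19), Dpysl5 (1.40), Mgst3 (0.93), Anxa5 (0.84) and S100b (0.74) were higher as well. Of these 8 genes, Uchl1 (0.47), Mgst3 (0.41) and Anxa5 (0.40) were also called higher in the members than in the other oligodendrocytes. The other 5 were not called there, with log2 fold changes from -0.11 for Serpinb1a to 0.44 for Dpysl5. Of all 22 genes called higher than in the interferon oligodendrocytes, 2 were called again with at least 5 UMIs of Serpina3n and C4b. With this sum scaled to the depth of the cell, 2 were called again as well. The other alternatives with the block kept from 11 (C4b alone) to 22 (no filter on low counts). Of the 21 genes called lower, 9 were called again with at least 5 UMIs and 6 with the scaled sum. Sterol synthesis genes were higher in both libraries in 28 of 29 cases with a median of 0.61, and none passed. Hmgcs1 was at 1210 and 782 in the members and at 408 and 456 in the interferon oligodendrocytes.

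**Figure D5:**
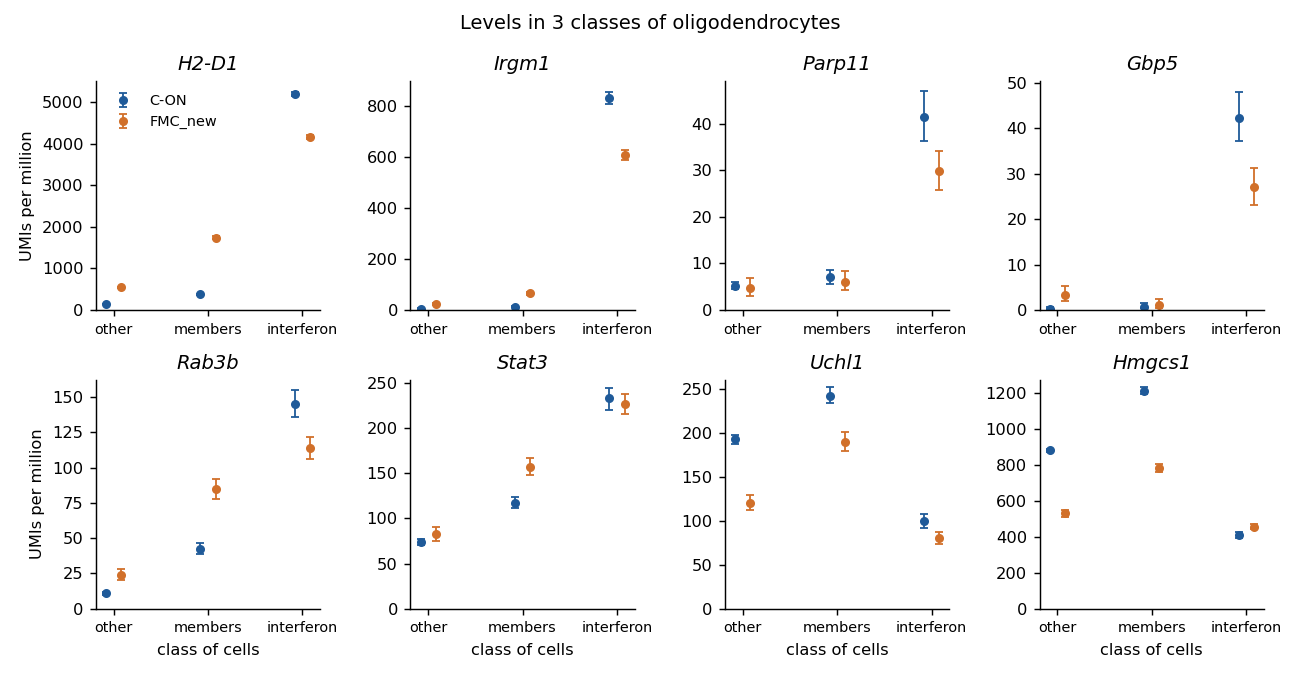
CPM (y axis, from 0) of 8 genes in the other oligodendrocytes, the members and the interferon oligodendrocytes (x axis), in C-ON and FMC_new, with exact 95% Poisson intervals for counting error only. H2-D1, Irgm1, Rab3b and Stat3 are intermediate in the members of each library, Parp11 and Gbp5 are highest in the interferon oligodendrocytes, and Uchl1 and Hmgcs1 are highest in the members.

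Of the 97 genes higher than in the other oligodendrocytes, 74 had a promoter in the RefSeq table. TTCNNNGAA was found in 9 of them (12.2%, against 9.55% of all 27025 genes), TTCNNTTTC in 9 (12.2%, against 9.76%) and GGGNNTTTC in 6 (8.11%, against 5.06%). B2m, H2-Q4, Csf1 and Anxa5 held GGGNNTTTC, as Serpina3n did. B2m, H2-T23, Irgm1 and Gbp7 held TTCNNTTTC. These matches describe letters in a window of 300 bases, and their counts were not tested.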

How the data were processed

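Single-cell suspensions of optic nerve were sequenced with a 10x 5′ kit, as 2 libraries. The authors made the count matrices with Cell Ranger 7.2.0 against mm10 (mm10-2020-A), per the file headers and the submitters' processing notes, and deposited raw UMI counts per gene and barcode without normalization. Total depth was 85101211 UMIs in C-ON and 129113325 in FMC_new. Barcodes with 500 to 5000 genes, 500 to 20000 UMIs and at most 5% mitochondrial UMIs were kept (8834 and 16818). No doublet caller was run. Of the barcodes, 296 occurred in both libraries, 1 of them among the members of both.

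The members, gene lists and comparisons were chosen with earlier results of these data known. Counts were summed per library and class, and edgeR 4.0.16 (filterByExpr, TMM, robust quasi-likelihood, library as a block, Benjamini-Hochberg) was run on all genes except the 10 of the rule under R 4.3.3. DESeq2 1.42.0 was an alternative. The library is the replicate, and the block pairs 2 classes of the same pool of mice. Levels are CPM of the class, with exact Poisson intervals, shares have exact Clopper-Pearson intervals, and both cover counting error only. P-values with the block rest on how far the difference between 2 classes varied between the 2 libraries, with this spread moderated across genes. Differences in level between the libraries are taken up by the block. On simulated counts, 93 of 100 genes changed by 1 on the log2 scale were called for the members against the other oligodendrocytes, and 73 of 100 against the interferon oligodendrocytes. Genes named were up to 6 called genes a list by fold change, and defining genes that were not called. Outside the lists they were the 15 highest and 10 lowest called genes (10 and 10 against interferon oligodendrocytes), of which some are given. These had at least 20 CPM and the same direction in both libraries. Genes shown along the Serpina3n and C4b sum and by subset, and the promoter patterns, were picked after values were seen. Promoters come from RefSeq on GRCm38.p6 and coordinates from GENCODE on GRCm38. Some genes are not reported here.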

Additional observations from a re-analysis of the deposited data

Results flagged for a closer look

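Serpina3n and C4b were also found in cells outside the comparisons. Of cells with at least 3 UMIs of Pdgfra, Cspg4 and Neu4, at most 1 UMI of the myelin genes and no Ptprc (precursors or glioma cells), 17.8% of 90 in C-ON and 47.8% of 667 in FMC_new had a Serpina3n and C4b sum of at least 3 after thinning to 4000 UMIs. T cells at the same depth had this in 0 of 319 cells in C-ON (exact upper bound 1.15%) and in 1.75% of 1539 cells in FMC_new. They were flagged because the signal lay above that background in data the report does not compare.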

How the results depend on the processing

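Without the replicate block no gene passed in either comparison (0 higher and 0 lower each, with 325 and 1083 genes at an unadjusted p under 0.05). For the members against the other oligodendrocytes, counts of higher and lower genes were 63 and 137 with DESeq2, 506 and 909 with no filter on low counts, 298 and 458 with at least 5 UMIs, 443 and 365 with at least 5 per 10000 UMIs, 216 and 401 with no interferon UMI, 345 and 621 with Serpina3n alone, 205 and 215 with C4b alone, 69 and 148 with depth matched, 134 and 100 without cells holding markers of other types, 279 and 294 with a myelin marker sum of at least 20, 251 and 146 without mixed barcodes, and 129 and 23 with depth matched as well. Against the interferon oligodendrocytes they were 38 and 141 (DESeq2), 512 and 635 (no filter), 2 and 17 (at least 5 UMIs), 2 and 11 (per 10000 UMIs), 86 and 99 (Serpina3n alone), 29 and 117 (C4b alone), 40 and 57 (depth matched), 67 and 103 (without markers of other types), 47 and 76 (myelin sum of at least 20), 168 and 240 (without mixed barcodes) and 86 and 169 (with depth matched too). The last 3 settings were added after the data were seen, and the cause of these shifts was not tested.

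The mean share of members, 24.2% of gated oligodendrocytes, became 15.7% with at least 5 UMIs, 16.7% with Serpina3n alone and 13.6% with C4b alone. It stayed within 1 SD of the libraries (7.07 percentage points) in the other alternatives, and was 19.2% and 29.2% in 1 library alone. This SD rests on 2 libraries, and the mean hides shifts within C-ON. There the share was 11.5% with at least 5 per 10000 UMIs and 9.98% after thinning, against 28.3% and 29.9% in FMC_new. Without replicate 1 or 2, all 119 called gene results kept their direction except Prl and Gh, which have no UMI in C-ON. Prl was at -4.20 without replicate 1 and 1.37 without replicate 2, and Gh at -0.65 and 1.37. The positive values rest on no UMI in either class. Genes outside the lists were named only if both libraries had the same direction, so for them this outcome was fixed by the choice. Among all 97 higher and 247 lower genes against the other oligodendrocytes, 327 had the same direction in both libraries. Gh was also reversed with DESeq2 (0.24). With at least 5 per 10000 UMIs or with C4b alone, the sign turned for Opalin (0.055 and 0.026), Hopx (-0.069 and -0.057) and Anxa5 (-0.30 and -0.30). Without mixed barcodes it turned for Egr1 (0.07), H2-DMb1 (0.30), Gadd45g (0.48), Btg2 (0.059), Lyz2 (0.19) and Mgp (0.51), and with depth matched as well for Egr1 (0.10), H2-DMb1 (0.70), Gadd45g (0.96), Btg2 (0.12), Lyz2 (0.63), Mgp (0.73), C1qb (0.28), H2-Aa (0.10), Nr4a1 (0.041) and Igkv6-15 (0.05). Depth limits the genes with few UMIs, such as Bcl3 with 42 UMIs in the members of C-ON. With 1 library left out no test was possible, since no residual degrees of freedom remain, and the values are ratios. For these gene results, the alternatives with a test gave 1010 values that kept direction and passed, 436 that kept direction and did not pass and 23 that turned sign. With 1 library left out, 211 ratios lay within 1 SD of the libraries from the value of both, 25 lay farther off, and 2 turned sign.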
